A study of Mus musculus with 17 samples.

Results

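The proteasome is the protease that degrades proteins tagged with ubiquitin, and the genes described here encode its constitutive subunits, its assembly chaperones and its regulators. Members were the genes whose symbol begins with Psma, Psmb, Psmc, Psmd, Psme, Psmf or Psmg followed by a digit, without pseudogenes and without the immunoproteasome subunits Psmb8, Psmb9 and Psmb10, at a mean depth-scaled level (CPM, counts relative to the library total) of at least 5 over the libraries of a table. This gave 44 of 55487 gene rows, the same 44 in the tables of dendritic cells and of B cells. They were chosen by name and level, not by response. Of 47 genes that matched by name, 3 lay below the threshold. Psmc3ip, a recombination factor and no proteasome subunit, averaged 4.26 CPM in dendritic cells and 3.03 CPM in B cells. In the same order Psma8, a testis alpha subunit, averaged 3.18 and 0.122 CPM, and Psmb11, a thymus beta subunit, 0 and 0.00241 CPM. Just above the threshold lay Psmg4 (11.1 CPM) and Psmg3 (11.7 CPM) in dendritic cells, and Psmg1 (9.11 CPM) and Psmg3 (9.18 CPM) in B cells.

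The barrel-shaped core particle has outer rings of alpha subunits, which gate the entrance, and inner rings of beta subunits, of which 3 kinds cut peptide bonds. A regulatory particle caps it, with a base that holds ubiquitin receptors and a ring of ATPases that unfolds substrates, and a lid that removes the ubiquitin. In cells of the immune system the peptides it releases are loaded on MHC class I molecules, and interferon is known to raise alternative catalytic subunits (the immunoproteasome) and the activator made of Psme1 and Psme2. The members comprised 7 alpha subunits, 4 structural and 3 catalytic beta subunits, 6 base ATPases, 3 other base subunits, 8 lid subunits, 4 chaperones of core assembly, 3 chaperones of base assembly, 5 activators and inhibitors, and Psme2b, a near copy of Psme2 whose reads may be split with it.

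RNA of 17 mouse libraries was sequenced, 8 from dendritic cells of bone marrow (BMDC), which present antigen to T cells, and 9 from splenic B cells, which make antibodies. The cells were incubated with MSA2 together with IPI-549 (2 BMDC and 3 B cell libraries), with MSA2 alone (3 and 3), or left without drug (Control, 3 and 3). MSA2 is an agonist of the innate immune sensor STING, IPI-549 an inhibitor of the lipid kinase PI3Kγ of leukocytes, and the first group is called the combination below. Per the series description all cells came from KPC mice, a model of pancreatic cancer, while the genotype label reads WT for every library and the treatment label reads Control for every library, so groups follow the sample titles. The labels give no age, dose, time, alleles, purification step or group with IPI-549 alone. They do not say whether replicates came from separate mice, so p-values may measure technical spread only.

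The promoters of 5 members named in the results are shown as examples, and other members changed as much or more. The catalytic subunits Psmb5 and Psmb6 were among the 10 members at least 2-fold higher in Control BMDC than in Control B cells. The activators Psme1 and Psme2 rose with MSA2 in BMDC, and the assembly chaperone Psmg4 fell with MSA2 in B cells. Each sequence runs 5′ to 3′ on the strand of its gene, from 250 bases before to 50 bases after the start that RefSeq gives on GRCm38.p6, 300 bases in all. The windows are chr14:54617946-54618245 on the minus strand for Psmb5, chr11:70525107-70525406 on the plus strand for Psmb6, chr14:55578244-55578543 on the plus strand for Psme1, chr14:55590972-55591271 on the minus strand for Psme2 and chr13:34162714-34163013 on the plus strand for Psmg4. RefSeq also gives Psme2 a start upstream of the one used, with its window at chr14:55591052-55591351, which is not printed. Capitals mark a match, on either strand, to the core of the antioxidant response element (TGACNNNGC, which factors of the NRF1 and NRF2 family bind) in Psmb5 and Psmb6, and to the core of the interferon-stimulated response element (GAAANNGAAA) in Psme1, where it lies on the minus strand, and in Psmg4.
Psmb5: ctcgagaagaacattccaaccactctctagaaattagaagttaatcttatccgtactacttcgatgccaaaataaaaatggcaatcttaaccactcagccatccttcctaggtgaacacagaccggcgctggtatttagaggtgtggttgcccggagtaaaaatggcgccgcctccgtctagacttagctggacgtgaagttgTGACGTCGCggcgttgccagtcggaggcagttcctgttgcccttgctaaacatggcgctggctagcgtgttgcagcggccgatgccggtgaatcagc
Psmb6: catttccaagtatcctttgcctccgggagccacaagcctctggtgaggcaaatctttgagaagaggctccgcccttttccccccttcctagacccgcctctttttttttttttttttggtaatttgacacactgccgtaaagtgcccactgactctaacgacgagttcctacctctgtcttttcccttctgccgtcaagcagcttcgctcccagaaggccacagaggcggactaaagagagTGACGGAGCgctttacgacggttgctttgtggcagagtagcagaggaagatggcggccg
Psme1: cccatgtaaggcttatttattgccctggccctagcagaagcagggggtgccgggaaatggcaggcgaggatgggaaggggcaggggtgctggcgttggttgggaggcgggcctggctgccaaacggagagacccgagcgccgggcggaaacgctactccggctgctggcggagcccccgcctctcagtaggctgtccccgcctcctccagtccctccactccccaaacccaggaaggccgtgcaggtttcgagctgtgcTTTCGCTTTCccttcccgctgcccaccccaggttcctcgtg
Psme2: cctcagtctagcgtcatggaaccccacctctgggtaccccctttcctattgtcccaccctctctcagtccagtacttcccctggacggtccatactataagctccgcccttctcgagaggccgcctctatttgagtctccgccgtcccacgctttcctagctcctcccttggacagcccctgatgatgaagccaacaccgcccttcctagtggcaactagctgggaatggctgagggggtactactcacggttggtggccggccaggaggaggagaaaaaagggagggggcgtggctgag
Psmg4: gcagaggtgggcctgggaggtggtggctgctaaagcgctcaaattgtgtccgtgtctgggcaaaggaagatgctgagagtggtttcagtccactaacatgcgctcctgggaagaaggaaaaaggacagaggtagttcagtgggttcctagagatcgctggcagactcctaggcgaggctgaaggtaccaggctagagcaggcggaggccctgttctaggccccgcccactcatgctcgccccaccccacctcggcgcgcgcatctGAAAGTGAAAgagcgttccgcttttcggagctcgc

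A window was at hand for 37 members. Psmb1, Psmb2, Psmb7, Psmc3, Psmd3, Psmd7 and Psmg2 were not looked at. The antioxidant core occurred in 6 of the 37 (16.2%; Psmb5, Psmb6, Psmc6, Psmd12, Psmd9 and Psme4) and in 14% of the windows of 27025 genes. The interferon core occurred in 5 of the 37 (13.5%; Psmb3, Psmd4, Psmd9, Psme1 and Psmg4) and in 3.99% of all windows. The window of Psme2 held neither, and none of the windows of Psmb8, Psmb9 and Psmb10 held the interferon core. Of the 10 members at least 2-fold higher in Control BMDC, only Psmb5 and Psmb6 held the antioxidant core, and Psmd7 had no window. The windows of Psmd8, with the largest difference between the Control groups, and Psmd10, with the largest decrease in B cells, held neither core. They are not printed, so the printed windows do not stand for the members. Motifs here are matches of letters, and no binding was measured.

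Library totals lay between 34760025 and 73166643 counts in BMDC, and between 41093440 and 51433008 counts in B cells. The members together took 0.523 to 0.580% of the counts of a BMDC library and 0.318 to 0.387% of those of a B cell library. The B cell libraries with MSA2 stood apart in their markers. The 12 B cell markers summed to 8749 to 9530 CPM in the combination, 4376 to 4907 CPM with MSA2 and 8700 to 9251 CPM in Control, and all 12 fell with MSA2 (median log2 fold change -0.97). The 10 T cell markers summed to 51.6 to 60.5, 1004 to 1258 and 64.5 to 81.2 CPM in the combination, with MSA2 and in Control, and all 10 rose with MSA2. All 7 NK cell, 8 monocyte and macrophage, 7 neutrophil and 7 erythroid markers rose with MSA2 too. The NK cell sum was 6.39 to 10.5 CPM in the combination, 307 to 378 CPM with MSA2 and 13.8 to 18.7 CPM in Control, and the monocyte sum 38.2 to 39.6, 1196 to 1329 and 36.7 to 54.3 CPM in the same order. The neutrophil sum was 0.308 to 0.844 CPM in the combination, 1471 to 1569 CPM with MSA2 and 2.09 to 32.4 CPM in Control, and the erythroid sum 17.9 to 22.3, 1049 to 1222 and 21.3 to 44.4 CPM. No marker of these lists was at 0 in the MSA2 or Control group of B cells. BMDC libraries held monocyte and macrophage markers at 12870 to 18180 CPM, dendritic cell markers at 9844 to 12000 CPM and B cell markers at 32.8 to 49.3 CPM. In B cells the dendritic cell sum was 16730 to 17690 CPM in the combination, 8204 to 10330 CPM with MSA2 and 16120 to 17300 CPM in Control. That list includes H2-Ab1 and Cd74, and its sum did not set BMDC apart from B cells. By library number, the MSA2 libraries of B cells follow those of the other groups, and the labels do not say what the number stands for. In bulk RNA, fewer cells of a type and less RNA per cell cannot be told apart.

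With MSA2, some genes of the core, the lid, the ATPase ring and the assembly chaperones were lower in B cells than in Control. Called members lay at 0.681 (Psmd10, a base chaperone) to 0.852 (Psmc4, a base ATPase) times the Control level. In total 25 of the 44 members were not called, some in each of these parts. The scaffold subunits Psmd1 and Psmd2 and the ubiquitin receptor Psmd4 were among them. Of the 44 members 0 rose and 19 fell (43.2%) by edgeR's quasi-likelihood test at an adjusted p under 0.05, where 24.8% of all 16194 genes tested rose and 18.5% fell (43.3% in all). The members' median log2 fold change was -0.17, that of all genes -0.01. The CPM values of the MSA2 and Control groups did not overlap for 24 of the 44 members, all 19 called ones among them. The share of all genes without overlap was not computed, so this count is a description only. DESeq2 called 18 lower. The call depends on how libraries are scaled: with library totals and no TMM factors, 1 member was higher and 9 were lower, and the median of the members was -0.08 where that of all genes was 0.09. The marker sums above moved in the same libraries, and their part in the result was not tested.

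In the alpha ring 4 of 7 subunits fell, Psma1, Psma2, Psma6 and Psma7. Psma2 (an alpha subunit of the gate ring) had 144.5, 146.7 and 124.6 CPM in the combination, 127.7, 97.4 and 124.6 CPM with MSA2, and 151.5, 155.2 and 155.5 CPM in Control. All 3 MSA2 libraries lay below all Control libraries, and the third combination library lay within the MSA2 range. The log2 fold change of MSA2 against Control was -0.40 ± 0.10 SE (edgeR adjusted p = 0.00939). Among the structural beta subunits Psmb1 and Psmb4 fell. Psmb1 had 207.1, 213.1 and 203.4 CPM in the combination, 183.7, 128.8 and 191.6 CPM with MSA2, and 231.0, 218.0 and 224.9 CPM in Control. The spread was widest with MSA2, where replicate 2 was far below the others (-0.42 ± 0.12 SE, edgeR adjusted p = 0.0184), and the call was lost without Control replicate 1, with a log2 fold change of -0.26 to -0.51 over the libraries left out in turn.

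Of the catalytic subunits Psmb6, which cuts after acidic residues, and Psmb7, which cuts after basic ones, fell, and Psmb5, which cuts after hydrophobic ones, was not called. Psmb6 had 84.3, 86.1 and 82.3 CPM in the combination, 70.7, 62.3 and 70.5 CPM with MSA2, and 86.9, 87.5 and 86.6 CPM in Control. The MSA2 libraries lay below all others (-0.36 ± 0.07 SE, edgeR adjusted p = 0.00143), a call kept under all 15 alternatives. Psmb7 had 114.1, 116.8 and 99.8 CPM in the combination, 99.9, 77.0 and 100.3 CPM with MSA2, and 116.9, 125.2 and 124.8 CPM in Control (-0.40 ± 0.10 SE, edgeR adjusted p = 0.00931). Psmb5 had 59.0, 60.5 and 55.1 CPM in the combination, 62.8, 49.6 and 60.9 CPM with MSA2, and 63.2, 65.9 and 60.5 CPM in Control, and its groups overlapped.

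In the regulatory particle 3 of 6 ATPases fell (Psmc1, Psmc4 and Psmc6), 0 of the 3 other base subunits, and 4 of 8 lid subunits (Psmd6, Psmd8, Psmd11 and Psmd12). Neither Psmd1, Psmd2 and Psmd4 in the base nor the lid deubiquitinase Psmd14 passed the test. The log2 fold changes of Psmd1, Psmd2 and Psmd4 were 0.02, 0.08 and 0.08. The 7 called subunits of base and lid lay between -0.23 ± 0.07 SE (Psmc4) and -0.35 ± 0.10 SE (Psmc1).

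The largest decreases of single members were those of the assembly chaperones Psmd10 and Psmg4, but the chaperones did not fall as a class. Of the base chaperones 1 of 3 fell and of the core chaperones 2 of 4, and Psmd5, Psmd9 and Psmg2 were not called. Their median log2 fold changes were -0.16 and -0.18, against -0.27 in the alpha ring and -0.29 and -0.36 for structural and catalytic beta subunits. Psmd10 (gankyrin, which holds an ATPase until the base is built; ENSMUSG00000031429, GRCm38 chrX:140948429-140956728) had 29.5, 32.9 and 27.0 CPM in the combination, 26.5, 21.4 and 24.4 CPM with MSA2, and 33.4, 36.3 and 36.5 CPM in Control. Every MSA2 library lay below every other library (-0.55 ± 0.10 SE, edgeR adjusted p = 0.00101). Psmg4, a chaperone of the alpha ring whose promoter is printed above (ENSMUSG00000071451, chr13:34162964-34178173), had 17.6, 16.4 and 16.1 CPM in the combination, 12.6, 10.96 and 14.6 CPM with MSA2, and 16.9, 18.7 and 17.96 CPM in Control (-0.49 ± 0.11 SE, edgeR adjusted p = 0.00373). Psmg3, its partner, fell as well (-0.35 ± 0.13 SE, edgeR adjusted p = 0.0399). Psmg1, another core chaperone, had 10.6, 9.67 and 10.02 CPM with MSA2 and 7.51, 8.53 and 9.15 CPM in Control, the reverse order with no overlap, and was not called (edgeR adjusted p = 0.0596).

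Of the 5 activators and inhibitors only Psme3, the nuclear activator, fell. It had 151.0, 154.8 and 130.3 CPM in the combination, 131.0, 120.3 and 117.5 CPM with MSA2, and 147.5, 153.6 and 162.6 CPM in Control (-0.33 ± 0.08 SE, edgeR adjusted p = 0.00801), and the call was lost with library totals and no TMM factors (-0.24). The interferon-inducible activator genes were not called. Psme1 had 203.6, 205.1 and 202.0 CPM in the combination, 217.5, 174.0 and 231.2 CPM with MSA2, and 203.4, 207.7 and 233.0 CPM in Control. Psme2 had 110.8, 116.3 and 110.2 CPM in the combination, 128.9, 106.9 and 134.6 CPM with MSA2, and 112.8, 118.1 and 131.7 CPM in Control. The MSA2 and Control libraries overlapped for both genes, with MSA2 replicate 2 below all Control libraries. Psme4, the activator of nuclear proteasomes, and Psmf1, which encodes an inhibitor, overlapped between the groups too, at 82.8 to 92.8 CPM with MSA2 and 90.3 to 95.4 CPM in Control for Psme4, and 29.4 to 34.5 CPM with MSA2 and 28.6 to 31.5 CPM in Control for Psmf1.

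**Figure D1:**
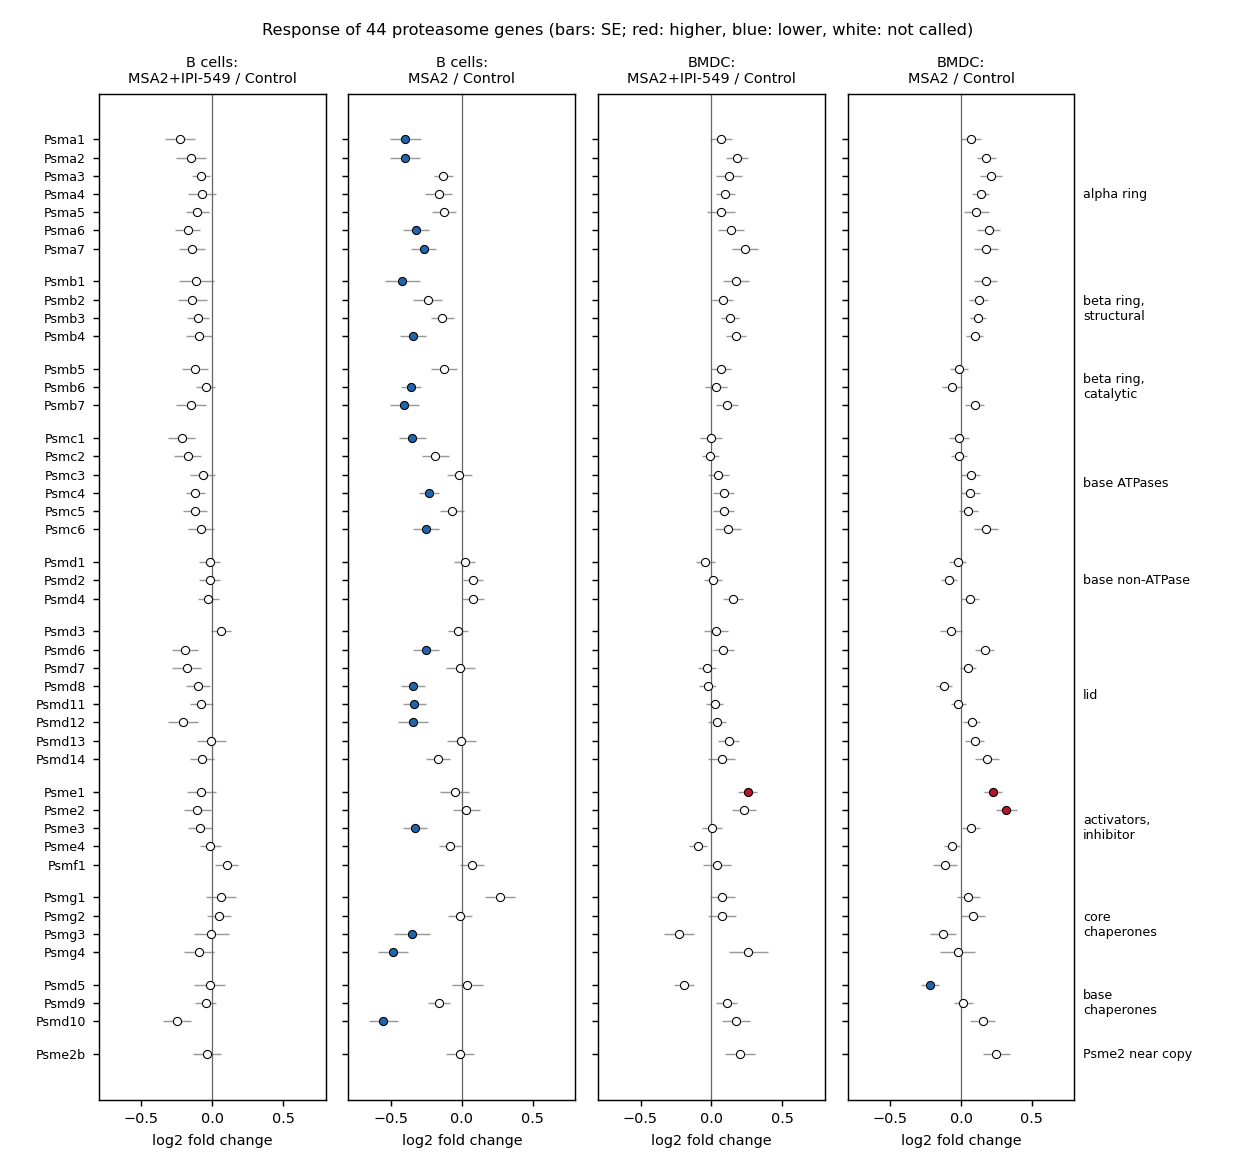
Log2 fold change (x axis) of the 44 members by role (y axis) in each cell type for the combination against Control and for MSA2 against Control; points are edgeR estimates, bars SE, red higher, blue lower, white not called. The panel of MSA2 in B cells holds 19 blue points, and in BMDC Psme1 and Psme2 are red and Psmd5 is blue with MSA2, and Psme1 alone is red with the combination.

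MSA2 replicate 2 held the lowest value of the 9 B cell libraries for 28 of the 44 members, and Control replicate 3 the highest for 22. The same count was not made over all genes. Without MSA2 replicate 2 the test called 14 members lower, without Control replicate 3 it called 13 lower and 1 higher, and over all libraries left out in turn the number lower ran from 13 to 20. The median coefficient of variation of the members was 4.96% in the combination, 8.78% with MSA2 and 4.93% in Control.

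Genes that work with the proteasome, on lists chosen with earlier results known, moved in both directions in the MSA2 libraries of B cells. Their counts stand beside the 24.8% of all genes that rose and the 18.5% that fell in this comparison. Of 7 genes of the NFE2L1 pathway, which restores proteasome genes when proteasomes are short, 3 rose and 1 fell. The deglycosylase Ngly1 (0.38), the degradation adaptor Sel1l (0.35) and the stress factor Nfe2l2 (0.29) rose, and Nfe2l1, the factor of proteasome genes itself, fell (-0.20). Of 12 chaperones of protein stress 3 rose (25%, near the share of all genes) and 0 fell: Bag3 (1.94), Hspa1b (1.51) and Hspa1a (1.34), the last 2 near copies whose reads may be split. Of 12 partners of the proteasome 1 rose, Zfand2a, a stress-induced proteasome adaptor (0.97), and 1 fell, Ublcp1, a phosphatase of the regulatory particle (-0.71). The shuttles Rad23b (-0.51) and Ubqln1 (-0.37), which carry tagged proteins to the proteasome, fell. Of 10 genes of the unfolding ATPase Vcp and its cofactors, Vcp rose (0.33) and Ubxn4 (-0.27) and Faf2 (-0.26) fell. The CCT chaperonin, a folding machine that is no part of the proteasome, had 4 of 8 subunits lower and 0 higher, among them Tcp1 (-0.40). Of the immunoproteasome subunits, Psmb8 was lower with 203.5, 177.4 and 220.1 CPM with MSA2 against 225.7, 235.8 and 263.2 CPM in Control (-0.27 ± 0.09 SE, edgeR adjusted p = 0.0333), and Psmb9 and Psmb10 were not called.

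The combination against Control in B cells gave no member past the threshold, 0 higher and 0 lower by edgeR and by DESeq2, where 0.685% of all genes rose and 0.371% fell (1.06% in all). At an unadjusted p under 0.05, 0 were higher and 2 lower, Psmd10 (-0.25, edgeR adjusted p = 0.451) and Psmc1 (-0.22, edgeR adjusted p = 0.507). The median log2 fold change was -0.09 for the members and -0.02 for all genes. The T cell, NK cell and neutrophil marker sums of the combination lay below those of Control and its B cell sum overlapped with Control, and their part was not tested. On the lists of genes that work with the proteasome, 0 genes passed.

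Set against MSA2 in B cells, the combination had 7 of 44 members higher (15.9%) and 0 lower, close to the 14.1% of all genes called higher, and 22.9% were called lower. They were Psmb6, Psmd8, Psmd11, Psmd10, Psmg3, Psmg4 and Psme3. With the title suffix as a replicate block the call of Psmd8 was lost (0.25, edgeR adjusted p = 0.0507) and the other 6 were kept. This comparison shares the MSA2 libraries with that of MSA2 against Control, so the values stand side by side and are no second observation. Psmg4 was 0.39 ± 0.11 SE higher (edgeR adjusted p = 0.0144), Psmg3 0.35 ± 0.13 SE (edgeR adjusted p = 0.0493) and Psmb6 0.31 ± 0.07 SE (edgeR adjusted p = 0.0039). Psmg3 had 10.4, 10.4 and 8.92 CPM in the combination, 8.69, 7.22 and 7.45 CPM with MSA2, and 11.1, 10.04 and 8.72 CPM in Control, and its combination and MSA2 values did not overlap. The calls of Psmg3 and Psme3 were each lost under 7 of 15 alternatives, with estimates of 0.24 to 0.44 for Psmg3 and 0.13 to 0.32 for Psme3, and that of Psmg4 was lost without combination replicate 1. The count fell to 2 higher in a fit of these 2 groups alone, to 1 without combination replicate 1, to 2 without combination replicate 2, to 3 without Control replicate 2, and to 3 higher and 1 lower without MSA2 replicate 2. With library totals and no TMM factors, 2 were higher and 3 lower, and the median of all genes shifted to -0.11. The sums of the B cell and other-cell markers given above separate these groups as well, and their part was not tested.

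In BMDC few members passed the test, and the higher ones were the genes of 1 activator. With MSA2, 2 of 44 members rose (Psme1 and Psme2) and 1 fell (Psmd5), where 14.6% of all 14613 genes tested rose and 13.5% fell, so the share of members called was below that of all genes. The median log2 fold change of the members was 0.07, that of all genes -0.01. At an unadjusted p under 0.05, 8 members were higher and 2 lower. Psme1 and Psme2 encode the subunits of the activator that binds the ends of the core, opens its gate and is known for its induction by interferon-γ.

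Psme1 (ENSMUSG00000022216, chr14:55578123-55581529) had 173.2 and 174.2 CPM in the combination, 167.6, 183.1 and 159.5 CPM with MSA2, and 146.5, 144.9 and 144.9 CPM in Control. Every treated library lay above every Control library. The log2 fold change was 0.26 ± 0.07 SE for the combination (edgeR adjusted p = 0.0294) and 0.23 ± 0.06 SE for MSA2 (edgeR adjusted p = 0.0173). The call with MSA2 was lost without Control replicate 1 or 2, with estimates of 0.17 to 0.27 over the libraries left out in turn, and that of the combination was lost without any 1 of the 3 Control or 2 combination libraries, with estimates of 0.25 to 0.26 over the libraries left out. Psme2 (ENSMUSG00000079197, chr14:55587441-55591113, near Psme1 on the other strand) had 169.6 and 171.2 CPM in the combination, 189.2, 194.3 and 159.8 CPM with MSA2, and 142.8, 151.5 and 141.3 CPM in Control. Its treated and Control values did not overlap either. It rose with MSA2 (0.32 ± 0.08 SE, edgeR adjusted p = 0.00848, kept under all 14 alternatives), while the combination, at 0.23 ± 0.08 SE, did not pass (edgeR adjusted p = 0.102). The near copy Psme2b had 51.8 and 48.7 CPM in the combination, 55.6, 57.3 and 43.1 CPM with MSA2, and 43.7, 44.5 and 43.1 CPM in Control, and was not called.

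Psmd5, a base assembly chaperone, had 37.1 and 37.4 CPM in the combination, 37.6, 37.5 and 35.0 CPM with MSA2, and 44.6, 41.7 and 41.7 CPM in Control. All treated libraries were lower than all Control libraries, and MSA2 passed the test (-0.22 ± 0.06 SE, edgeR adjusted p = 0.0239), though not without the filter on low counts, without Control replicate 1 or without MSA2 replicate 3. The combination did not (edgeR adjusted p = 0.101). Psmd5 overlaps Cutal and Psme1 overlaps Emc9 on the opposite strand, and the sources do not say whether reads were counted by strand. The catalytic subunits overlapped between groups. Psmb5 had 161.8 and 172.7 CPM in the combination, 156.6, 167.4 and 149.3 CPM with MSA2, and 151.8, 167.3 and 159.3 CPM in Control. Psmb6 stood at 166.1 and 185.5 CPM in the combination, 167.5, 173.8 and 152.5 CPM with MSA2, and 168.7, 180.8 and 166.7 CPM in Control, and Psmb7 at 144.0 and 155.9, 153.2, 156.9 and 135.7, and 135.7, 137.1 and 144.6 CPM in the same order. Psme3 ranged from 106.6 to 123.6 CPM, Psme4 from 89.5 to 102.1 CPM and Psmf1 from 26.9 to 33.3 CPM over the 8 libraries, with no call.

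Against Control, the combination had 1 member higher, Psme1, and 0 lower, where 7.51% of all genes rose and 5.38% fell. At an unadjusted p under 0.05, 5 members were higher and 1 lower. Set against MSA2, no member passed (0 higher and 0 lower by edgeR and by DESeq2, and 0 at an unadjusted p under 0.05), and neither did any other gene (0% of all genes). The number of calls in BMDC depended on the method: for MSA2 against Control, DESeq2 gave 4 higher and 1 lower, the fit without a filter on low counts 5 and 0, leaving out MSA2 replicate 1 gave 4 and 1 and leaving out Control replicate 1 gave 1 and 0. For the combination it was 2 without MSA2 replicate 3 or in a fit of its 2 groups alone. MSA2 replicate 2, the deepest library, was the highest of the 8 for 24 of the 44 members, a count not made over all genes.

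**Figure D2:**
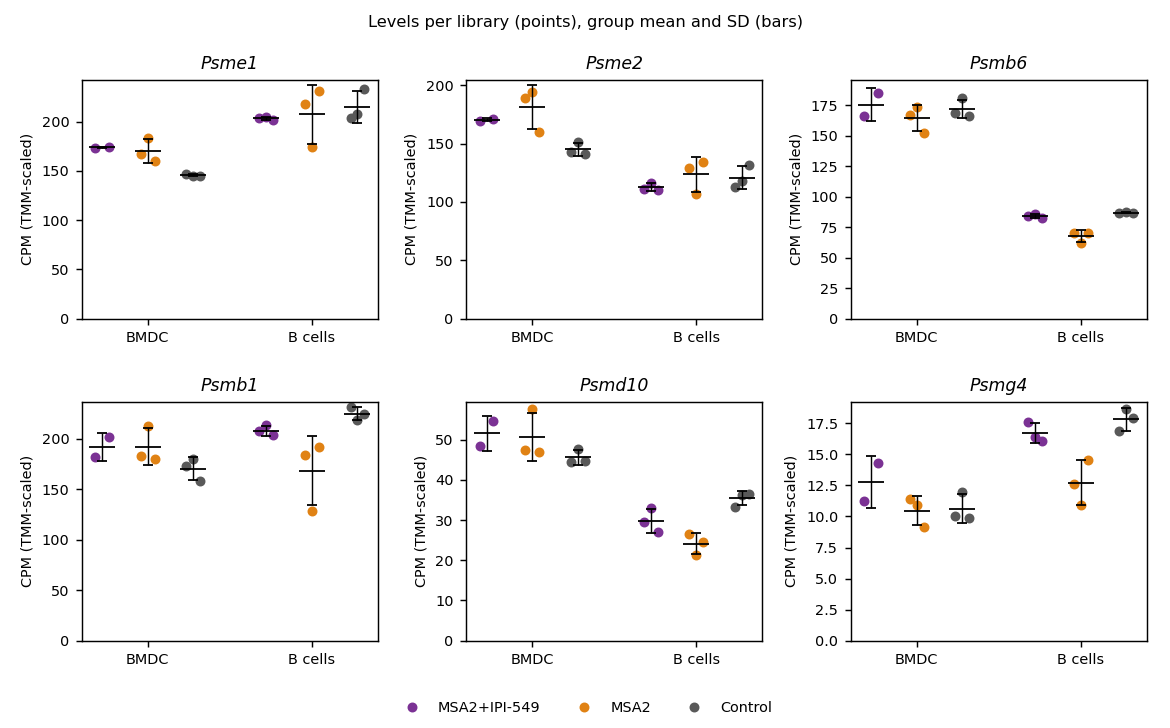
TMM-scaled CPM (y axis, from 0) of 6 members in every library, by cell type (x axis) and treatment (colour), with mean and SD as bars. In BMDC the combination and MSA2 points of Psme1 and Psme2 all lie above Control; in B cells the MSA2 points of Psmb6, Psmb1, Psmd10 and Psmg4 all lie below Control.

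Around the proteasome of BMDC, Psmb9 was the immunoproteasome subunit that rose, with 72.0 and 76.8 CPM in the combination, 81.6, 74.7 and 71.5 CPM with MSA2, and 63.7, 61.9 and 62.1 CPM in Control (0.25 ± 0.07 SE, edgeR adjusted p = 0.0425 for the combination, and 0.28 ± 0.06 SE, edgeR adjusted p = 0.0075 for MSA2). The ratio of Psmb6 counts to those of Psmb9, which takes its place in the immunoproteasome, averaged 2.36 ± 0.07 in the combination (SD, n = 2), 2.17 ± 0.14 with MSA2 (SD, n = 3) and 2.75 ± 0.15 in Control (SD, n = 3). The ratio of Psmb7 to Psmb10 went the other way, at 2.73 ± 0.04, 2.86 ± 0.12 and 2.52 ± 0.14 in the same order. That of Psmb5 to Psmb8 was 0.689 ± 0.016, 0.682 ± 0.043 and 0.759 ± 0.058. The list results with MSA2 stand beside the 14.6% of all genes that rose and the 13.5% that fell. With MSA2, 5 of 8 CCT subunits rose (led by Cct6a at 0.26, Tcp1 at 0.23 and Cct7 at 0.20) and 0 fell. Of the proteasome partners Txnl1, a thioredoxin of the regulatory particle, rose (0.36) and Zfand2a fell (-0.29). The activating enzyme subunit Uba3 (0.25), the Vcp cofactors Faf1 (0.32) and Ufd1 (0.17), and the chaperone Dnaja1 (0.27) rose, and Ddi2, the protease that activates NFE2L1, fell (-0.23). With the combination Txnl1 rose (0.27) and Zfand2a fell (-0.44), where 7.51% of all genes rose and 5.38% fell.

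The next comparison asked whether the cell types responded differently to MSA2. In 1 fit of all 17 libraries, the BMDC response minus the B cell response was called higher for 22 of 44 members (50%) and lower for 0, where 16.3% of 17739 genes were called higher and 20.7% lower. The median difference was 0.29 for the members and -0.04 for all genes. The 22 were 6 of 7 alpha subunits (Psma1, Psma2, Psma3, Psma4, Psma6 and Psma7), all 4 structural beta subunits, the catalytic subunits Psmb6 and Psmb7, the ATPases Psmc1, Psmc4 and Psmc6, the lid subunits Psmd6, Psmd11, Psmd12 and Psmd14, and Psmd10, Psmg4 and Psme3. This test uses the same MSA2 and Control libraries as those above, B cells with their other-cell markers included, and the libraries of each cell type carry a leading number of their own, so cell type and what that number stands for cannot be told apart.

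The largest difference was that of Psmd10, 0.71 ± 0.14 SE (edgeR adjusted p = 0.000443). In BMDC it had 47.3, 57.5 and 47.0 CPM with MSA2 and 44.4, 47.8 and 44.7 CPM in Control, overlapping groups, and in B cells the lower values with MSA2 given above. Psmb1 followed with 0.60 ± 0.16 SE (edgeR adjusted p = 0.00661) and Psma2 with 0.59 ± 0.13 SE (edgeR adjusted p = 0.00171). Psmb1 had 182.7, 212.9 and 179.9 CPM with MSA2 and 172.6, 180.1 and 157.7 CPM in Control of BMDC. Psma2 had 168.9, 186.2 and 162.4 CPM with MSA2 and 145.8, 160.1 and 150.9 CPM in Control of BMDC. Their log2 fold changes pointed up in BMDC without a call and down in B cells with one. Psme1 and Psme2, called in BMDC and not in B cells, did not pass this test, at 0.28 ± 0.13 SE (edgeR adjusted p = 0.0977) and 0.30 ± 0.13 SE (edgeR adjusted p = 0.0846). Of the lists, the CCT subunits had 6 of 8 called higher in this difference and 0 lower, where 16.3% of all genes were called higher and 20.7% lower. The proteasome partners had 2 higher (Ublcp1 at 0.75 and Txnl1 at 0.49) and 1 lower (Zfand2a at -1.26), and the Vcp list 2 higher (Ubxn4 at 0.45 and Faf1 at 0.41) and 1 lower (Vcp at -0.37). The NFE2L1 pathway had 1 higher (Nfe2l1 at 0.39) and 2 lower (Sel1l at -0.37 and Ddi2 at -0.32), and the chaperones of protein stress 0 higher and 3 lower (Bag3 at -2.07, Hspa1b at -1.76 and Hspa1a at -1.74). The shuttles Rad23b (0.59) and Ubqln1 (0.45), Uba3 (0.42), and the immunoproteasome subunits Psmb8 (0.42) and Psmb9 (0.42) were called higher as well.

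**Figure D3:**
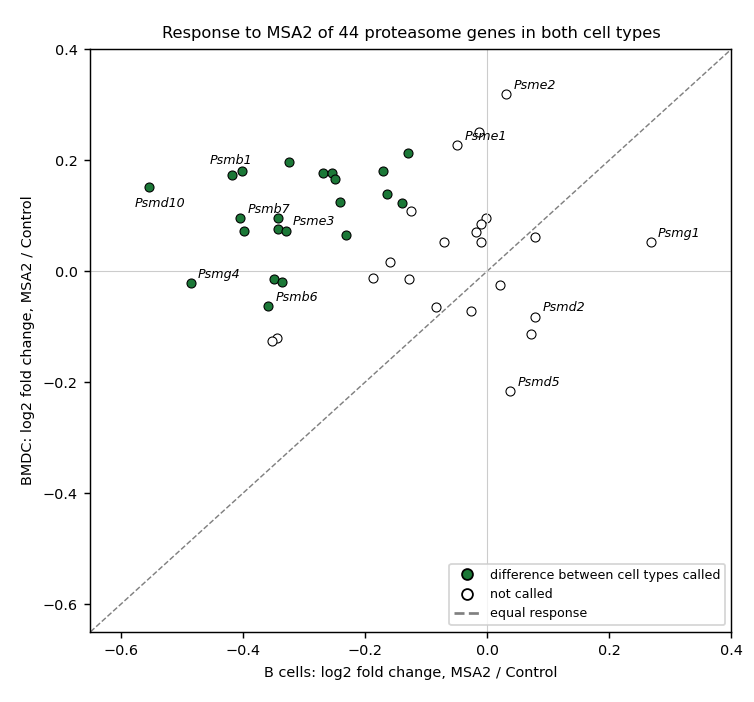
Log2 fold change of MSA2 against Control in BMDC (y axis) against that in B cells (x axis) for the 44 members; filled points are the 22 whose difference between cell types was called, and the dashed line marks equal response. The filled points lie above the line, with Psmd10, at a difference of 0.71, farthest to the left.

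The count of 22 was 14 higher and 1 lower without B cell MSA2 replicate 2, 13 higher without BMDC Control replicate 1 and 14 higher without BMDC MSA2 replicate 2. The call of Psmb6 was lost without any 1 of these 3 libraries and without BMDC Control replicate 3, with estimates of 0.24 to 0.35 over the libraries left out. With library totals and no TMM factors, 8 were higher and 3 lower, with medians of 0.16 for the members and -0.18 for all genes. For the response to the combination this test called 0 members higher and 0 lower by edgeR and by DESeq2, where 2.14% of all genes were called higher and 0.902% lower (3.04% in all). At an unadjusted p under 0.05, 5 members were higher and 0 lower, and the median was 0.15. For the difference between the combination and MSA2, 0 members were called higher and 2 lower in BMDC than in B cells, Psmg3 (-0.49 ± 0.16 SE, edgeR adjusted p = 0.0368) and Psme3 (-0.35 ± 0.11 SE, edgeR adjusted p = 0.0303), where 15.3% of all genes were called higher and 8.83% lower. In BMDC, Psmg3 had 10.1 and 11.3 CPM in the combination and 10.9, 11.8 and 11.8 CPM with MSA2, and Psme3 had 111.9 and 111.3 CPM in the combination and 123.6, 110.3 and 117.5 CPM with MSA2. The count was 0 without B cell combination replicate 1 or 2, BMDC combination replicate 1 or 2, or BMDC MSA2 replicate 3. It was 1 without B cell MSA2 replicate 2 or 3, BMDC Control replicate 1, or BMDC MSA2 replicate 1 or 2, and 3 without B cell combination replicate 3. With library totals and no TMM factors, 2 were higher and 0 lower, and the median of all genes was 0.15.

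The largest differences of all were between the cell types without drug. Of the 44 members 35 (79.5%) were higher and 4 (9.09%) lower in Control BMDC than in Control B cells, where 39.3% of all genes were higher and 40.7% lower (79.9% in all). The median log2 fold change was 0.48 for the members and -0.07 for all genes, and 10 members were at least 2-fold higher: Psmd8, Psmb5, Psmg1, Psmd1, Psmd13, Psmd2, Psmd14, Psmd7, Psmb6 and Psma6. Higher levels were called for 6 of 7 alpha subunits, 2 of 4 structural and 3 of 3 catalytic beta subunits, 6 of 6 ATPases, 3 of 3 other base subunits, 8 of 8 lid subunits, 3 of 3 base chaperones, 2 of 4 core chaperones and 2 of 5 activators and inhibitors. Psma2, Psmb4, Psmf1, Psmg2 and Psme2b had no call. Over the libraries left out in turn 34 to 36 were higher, and with library totals and no TMM factors 33 higher and 4 lower. As above, cell type and library number cannot be told apart.

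Levels in this comparison are CPM with both cell types scaled together. Psmd8, a lid subunit, had 371.7, 370.0 and 372.6 CPM in Control BMDC and 126.4, 138.1 and 138.0 CPM in Control B cells (1.47 ± 0.08 SE, edgeR adjusted p = 3.91e-12). Psmb5, the catalytic subunit that proteasome inhibitors such as bortezomib bind, had 157.0, 173.9 and 165.3 CPM in Control BMDC and 60.5, 63.4 and 58.9 CPM in Control B cells (1.44 ± 0.08 SE, edgeR adjusted p = 1.24e-11). Psmg1, a core chaperone, had 19.99, 20.2 and 19.9 CPM in Control BMDC and 7.19, 8.21 and 8.91 CPM in Control B cells (1.31 ± 0.09 SE, edgeR adjusted p = 3.40e-10). None of these groups overlapped.

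The catalytic subunits differed in degree. Psmb6 had 174.6, 187.9 and 173.0 CPM in Control BMDC and 83.2, 84.2 and 84.3 CPM in Control B cells (1.09 ± 0.07 SE, edgeR adjusted p = 8.80e-11). Psmb7 had 140.4, 142.6 and 150.0 CPM in Control BMDC and 111.9, 120.5 and 121.5 CPM in Control B cells, a smaller difference (0.29 ± 0.09 SE, edgeR adjusted p = 0.00829). Psmb9 (-0.56) and Psmb10 (-0.24), immunoproteasome subunits, were lower in Control BMDC. The count of Psmb5 relative to that of Psmb8, its immunoproteasome counterpart, averaged 0.759 ± 0.058 in Control BMDC and 0.263 ± 0.029 in Control B cells (SD, n = 3 each).

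The 4 members lower in Control BMDC were Psmg4, Psme1, Psme3 and Psmb1. Psmg4 had 10.4, 12.4 and 10.2 CPM in Control BMDC and 16.1, 17.95 and 17.5 CPM in Control B cells (-0.64 ± 0.12 SE, edgeR adjusted p = 0.000123), so the core chaperones Psmg1 and Psmg4 went opposite ways. Psme1 had 151.6, 150.6 and 150.3 CPM in Control BMDC and 194.8, 199.9 and 226.8 CPM in Control B cells (-0.46 ± 0.09 SE, edgeR adjusted p = 0.000181). Its partner Psme2 was higher in Control BMDC, at 147.8, 157.5 and 146.6 CPM against 108.0, 113.6 and 128.2 CPM in Control B cells (0.37 ± 0.09 SE, edgeR adjusted p = 0.00132). Psme1 had 1.002 ± 0.040 counts per Psme2 count in Control BMDC and 1.78 ± 0.02 in Control B cells (SD, n = 3 each). Psme3 had 112.5, 110.8 and 123.1 CPM in Control BMDC and 141.2, 147.8 and 158.3 CPM in Control B cells (-0.37 ± 0.08 SE, edgeR adjusted p = 0.000211). Psmb1 was at -0.30 ± 0.11 SE (edgeR adjusted p = 0.0238), and Psme4 was higher by 0.21 ± 0.07 SE (edgeR adjusted p = 0.00799), a call lost with library totals and no TMM factors (0.14).

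**Figure D4:**
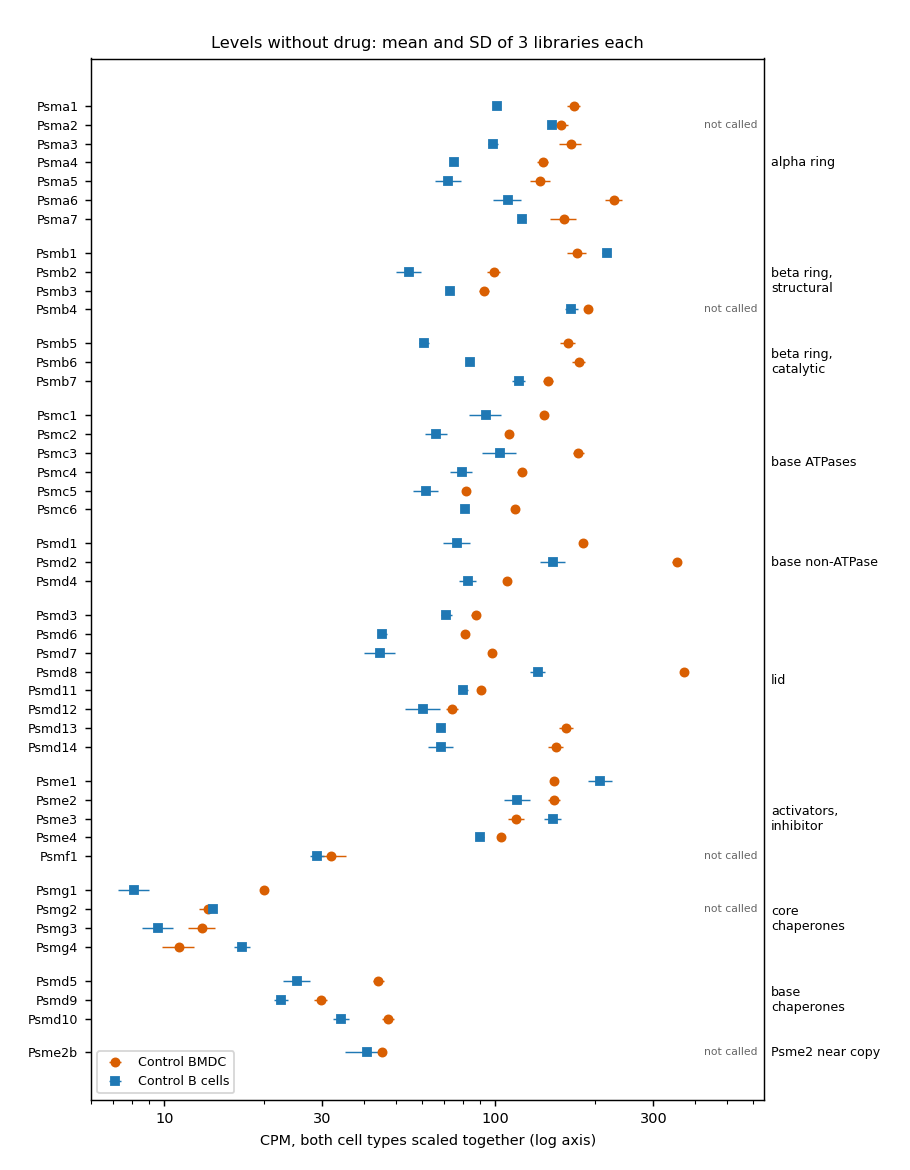
CPM of the 44 members in Control BMDC and Control B cells, both scaled together (x axis, log scale), by role (y axis); symbols are means of 3 libraries and bars SD. BMDC symbols lie to the right for 35 called members and to the left for Psmg4, Psme1, Psme3 and Psmb1.

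Levels per kilobase of transcript allow a rough comparison between genes. They use the median length of annotated coding transcripts, not of those expressed, so the order depends on the annotation. It began in Control BMDC with Psma6 at 240.3 ± 13.2 CPM per kb, Psmd8 at 234.7 ± 1.2, Psmb6 at 215.7 ± 9.6, Psmb5 at 209.6 ± 10.2 and Psme1 at 204.5 ± 1.3 (SD, n = 3 each). Psma6 and Psmd8, and Psmb6, Psmb5 and Psme1, lay within their SD of a neighbour. In Control B cells Psme1 led at 302.0 ± 22.5 CPM per kb, ahead of Psmb4 at 148.6 ± 5.7 and Psme2 at 137.6 ± 11.1 (SD, n = 3 each), and Psmb4 and Psme2 lay within their SD of each other. The lowest member in both cell types was the chaperone Psmd5, at 9.71 ± 0.38 CPM per kb in Control BMDC and 5.94 ± 0.52 in Control B cells (SD, n = 3 each).

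Counts for the genes around the proteasome stand beside the 39.3% of all genes higher and the 40.7% lower in Control BMDC. Of the partners 9 of 12 were higher, among them the deubiquitinase Usp14 (1.54), Zfand2a (1.31) and the core maturation factor Pomp (1.22), and 3 were lower, led by Ublcp1 (-1.65). In the NFE2L1 pathway 5 of 7 were higher (Nfe2l3 1.499, Sel1l 1.496, Nfe2l2 1.08, with Nfe2l1 at 0.70) and 1 lower, the ubiquitin ligase Syvn1 (-1.35). Nfe2l3 was near the floor, at a mean of 0.906 CPM in Control BMDC and 0.344 CPM in Control B cells, each scaled within its cell type. Of the Vcp list 6 of 10 were higher, led by Vcp (1.01), and 2 lower, led by Ubxn7 (-0.99). The CCT list had 2 of 8 higher and 3 lower. The chaperones of protein stress went the other way, 1 of 12 higher, Bag3 (2.83), and 10 lower, among them Hspb1 (-6.97), Hspa1b (-6.69) and Hspa1a (-6.67). In the 3 Control BMDC libraries together Hspb1 had 7 counts, Hspa1b 196 and Hspa1a 171, so the size of these differences is uncertain.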

How the data were processed

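RNA was extracted with a Qiagen RNeasy kit and libraries were made with an Illumina kit, per the labels' protocols. The authors deposited expected counts per gene, 1 table for each cell type, and all values were whole numbers. Per the submitters' processing notes the tools were cutadapt 4.8, STAR 2.7.8a, RSEM 1.3.3, FastQC 0.11.8 and MultiQC 1.20, with GRCm38/mm10; strandedness and annotation release are not given in the sources used here. The 4 reporter rows (at most 0.0107% of counts) were left out.

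From these counts, edgeR 4.0.16 in R 4.3.3 was run with TMM factors, filterByExpr and the quasi-likelihood F test, separately for 9 B cell libraries (16194 genes) and 8 BMDC libraries (14613 genes), and jointly for 17 libraries (17739 genes) for differences between cell types. P-values were adjusted by Benjamini-Hochberg over all genes of a fit, and 0.05 was the threshold. SE is the log2 fold change divided by the root of F. CPM are TMM-scaled within a fit. CPM per kb divides by the median length of GENCODE M21 basic coding transcripts. The scripts were tested on simulated data. Samples were grouped by title. Values per library are given for the catalytic subunits, the activators and the inhibitor, and for up to 3 called members with the largest change in each direction of a comparison, and up to 4 called genes are named per list; Psmg1 in B cells, Psmb8, Psmb9 and Psme2b were added after their values were seen. Some genes of the lists are not reported here. Members and lists were chosen with earlier results of these data known. 20 members overlap another annotated gene, 15 on the opposite strand. Replicates of a group differed by more than sampling noise, with chi-square per degree of freedom of 9.52 to 95.3. Deviations of same-suffix samples from their group means correlated at 0.12, 0.15 and 0.26 between the combination and MSA2 libraries of B cells, which pairs these groups by a criterion of 0.1 in every pair. They correlated at -0.04 to 0.08 between Control and treated B cell libraries and at -0.11 to 0.13 in BMDC. The labels do not say what the suffix stands for. Alternatives were other library factors, no filter, DESeq2 1.42.0, a replicate block, fits of the compared groups alone, and leaving out each library. With 34760025 to 73166643 counts per library, the members' values rest on many reads, so replicate spread limits precision.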

Additional observations from a re-analysis of the deposited data

Results flagged for a closer look

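By the test of the difference itself in the joint fit, the response to MSA2 differed between the cell types for 22 members. Each was higher in BMDC than in B cells on the log2 scale. They were 50% of the members, where 16.3% of all genes were called higher and 20.7% lower. By role, the alpha subunits were Psma2 (0.59), Psma6 (0.53), Psma1 (0.48), Psma7 (0.45), Psma3 (0.35) and Psma4 (0.31). The structural beta subunits were Psmb1 (0.60), Psmb4 (0.45), Psmb2 (0.37) and Psmb3 (0.27), and the catalytic ones Psmb7 (0.51) and Psmb6 (0.30). The ATPases were Psmc6 (0.44), Psmc1 (0.34) and Psmc4 (0.31), and the lid subunits Psmd12 (0.43), Psmd6 (0.43), Psmd14 (0.36) and Psmd11 (0.33). The chaperones Psmd10 (0.71) and Psmg4 (0.47) and the activator Psme3 (0.41) complete them. The difference between the combination and MSA2 differed between the cell types for Psmg3 (-0.49) and Psme3 (-0.35), lower in BMDC. This share of the members, 4.55%, was below the 8.83% of all genes called lower. Both calls were lost with library totals and no TMM factors, and without the filter on low counts. They were also lost without B cell combination replicate 1 or 2. All differences listed in this section rest on the B cell MSA2 libraries whose marker sums stand apart, and the part of these cells was not tested.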

How the results depend on the processing

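The counts of called members kept within 1.5 times the main count under RLE factors in every comparison. With library totals and no TMM factors, MSA2 against Control in B cells gave 10 calls and the difference between cell types in the response to MSA2 gave 11. Without the filter on low counts, MSA2 against Control in BMDC gave 5 and the difference between cell types in combination against MSA2 gave 0. DESeq2 gave 5 for MSA2 against Control in BMDC. In fits of only the groups compared, the combination against MSA2 in B cells gave 2, the combination against Control in BMDC 2, and the difference between cell types in combination against MSA2 1. The cause was not tested. Leaving out 1 library at a time, calls ranged from 1 to 8 for the combination against MSA2 in B cells, from 1 to 5 for MSA2 against Control and from 0 to 2 for the combination against Control in BMDC, from 13 to 24 for the difference in the response to MSA2, and from 0 to 3 for that in combination against MSA2. Among MSA2 against Control values in B cells, Psme1 (-0.05) changed sign to 0.0353 with library totals and ranged from -0.125 to 0.0652 with libraries left out (above 0 without Control replicate 3 or MSA2 replicate 2), and Psme2 (0.03) ranged from -0.0271 to 0.126 (below 0 without Control replicate 1 or MSA2 replicate 3). Neither was called. Samples sharing a title suffix correlated at over 0.1 in all 3 pairs of combination and MSA2 B cell libraries, and in 0 of the 6 B cell pairs with Control and 1 of 7 BMDC pairs. With the suffix as a replicate block, the combination against MSA2 in B cells gave 6 calls and MSA2 against Control in B cells gave 19. In BMDC, MSA2 against Control gave 7 calls and the combination against Control 0. The difference between cell types in the response to MSA2 gave 21. Calls lost included Psmd8 in the combination against MSA2 in B cells and Psme1 in the combination against Control in BMDC. Psmb7 and Psme2 between the Control groups lost theirs too, as did Psme3 in the difference between cell types in combination against MSA2. Replicates differed by more than counting noise at this depth, and the BMDC combination has 2 libraries.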

Other observations

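Transcript length and log2 fold change had Spearman correlations over the 44 members of 0.15 for MSA2 against Control in B cells, -0.30 for MSA2 and -0.46 for the combination against Control in BMDC, and -0.03 for Control BMDC against Control B cells. These are descriptions over members that share libraries. In B cells the count of Psmb6 per count of Psmb9 averaged 0.891 ± 0.033 in the combination, 0.753 ± 0.060 with MSA2 and 0.875 ± 0.021 in Control (SD, n = 3 each). The ratio of Psmb7 to Psmb10 was 1.65 ± 0.10, 1.40 ± 0.15 and 1.75 ± 0.12 in the same order. That of Psmb5 to Psmb8 had its highest mean with MSA2, at 0.264 ± 0.009, 0.288 ± 0.018 and 0.263 ± 0.029.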
